A study of Mus musculus with 5 samples.

Results

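Histone variants are made outside the bulk supply of histones for DNA replication, and 8 genes that encode such variants and give polyadenylated mRNA were followed in mouse cardiac fibroblasts (CF): H3f3a and H3f3b, H2az1 and H2az2, H2ax, H2aj, Macroh2a1 and H1f0. The genes were taken by name from 20365 gene names in the deposited tables, and all 8 had reads in every library. Of the 3′ UTR intervals of a gene, the one with the highest deposited CPM (reads scaled to the size of the library) on average over the labeled libraries was used. The CF came from the hearts of healthy adult male C57Bl/6J wildtype mice, were isolated by collagenase perfusion and were grown to confluency, so the values describe cultured cells. In 3 libraries the cells had received 0.1 mM 4-thiouridine (S4U) for 12 h, and in 2 libraries they were kept in parallel without S4U. RNA of both groups was alkylated, so that an incorporated S4U is sequenced as C. The T>C conversion rate is the fraction of covered T positions read as C, and it is higher where more of a transcript was made during labeling.

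Chromatin is packed on nucleosomes made of the core histones H2A, H2B, H3 and H4, with a linker histone H1 between them. The replication-dependent histone genes are transcribed mainly in S phase, and their mRNA ends in a stem-loop in place of a poly(A) tail. Variant genes are mostly transcribed throughout the cell cycle, have introns in many cases and carry poly(A) tails, so that variants can replace core histones outside S phase, also in cells that rarely divide. Libraries primed on poly(A) tails, as used here, read the 3′ end of such mRNAs. In this method a transcript gives reads at its 3′ end irrespective of its length, so levels were compared between genes without a length correction, and the interval sets which part of an mRNA is seen.

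The polyadenylation hexamers of the intervals are shown first because libraries primed on poly(A) tails read next to 3′ ends, and the hexamer is in capitals. Use of each end was not measured. Sequences are from GRCm39, 5′ to 3′ on the strand of the gene. AATAAA and ATTAAA were searched on the transcribed strand in the last 50 bases of each interval. AATAAA was found there for H2az2, H3f3b, H1f0 and H2aj, and ATTAAA for H3f3a, H2az1 and H2ax. The interval of Macroh2a1 held neither. Of 19459 gene intervals of at least this length, 63.7% held AATAAA, 17.8% held ATTAAA and 77.7% held either.
H3f3b, distal (chr11:115912813-115912842, minus strand): ataggccttacaAATAAActagtaagtttg
H3f3b, middle (chr11:115913118-115913147, minus strand): actaaatttacaAATAAActtgtttattca
H3f3a (chr1:180630133-180630162, minus strand): tgtaagtttgctATTAAAatacattaaact
H2az1 (chr3:137572646-137572675, plus strand): ctctgcttactaATTAAAcagtgcatctgt
H2az2 (chr11:6377240-6377269, minus strand): caaatgcacagaAATAAAgaaactagcact
H2ax (chr9:44247328-44247357, plus strand): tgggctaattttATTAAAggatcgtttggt
H2aj, distal (chr6:136787037-136787066, plus strand): gcaaaaaggacaAATAAAgaatatattaca
H2aj, proximal (chr6:136785760-136785789, plus strand): cagtccgcagccAATAAAgtcggtgaaaag
H1f0 (chr15:78914671-78914700, plus strand): ttaaaactttaaAATAAAactggaaaggaa

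H2ax is known to give both a stem-loop mRNA in S phase and a longer polyadenylated mRNA, and its interval held a match to the histone stem-loop consensus in addition to the distal hexamer. The match began at base 47 of the interval and lay 838 bases before its end. It is printed here with the stem-loop in capitals because it sets H2ax apart from the other 7 genes, whose intervals held none.
H2ax stem-loop (chr9:44246532-44246557, plus strand): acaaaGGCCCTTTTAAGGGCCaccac
The consensus, searched on the transcribed strand, was present in 77 of 20329 gene intervals (0.379%) and in 59 of the 63 replication-dependent histone genes (93.7%). Within the first 100 bases it was found in 4 of 18335 intervals that were at least 100 bases long (0.0218%). Such a match is a description of these letters, and use of this end was not tested.

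The intervals lay inside annotated exons of the genes and overlapped the last exon of the canonical transcript. That of H3f3b (ENSMUSG00000016559.16) covered chr11:115912787-115914232 and that of H3f3a (ENSMUSG00000060743.14) chr1:180630125-180630641, both on the minus strand. The H3f3a interval stopped 2074 bases before the end of the canonical transcript, which is also the farthest annotated end of the gene. Reads at that end were therefore not seen in the interval. The last 50 bases before it, searched in the same way, held an AATAAA. The H2az2 interval covered the end of the canonical transcript but stopped 5995 bases before the farthest annotated end. H2az1 (ENSMUSG00000037894.15) was read on chr3:137572209-137572683 of the plus strand and H2az2 (ENSMUSG00000041126.18) on chr11:6377226-6378370 of the minus strand. H2ax (ENSMUSG00000049932.4) was read on chr9:44246491-44247374 and H2aj (ENSMUSG00000060032.8) on chr6:136785728-136787072, both on the plus strand. H1f0 (ENSMUSG00000096210.3) was read on chr15:78913507-78914704 of the plus strand. Macroh2a1 (ENSMUSG00000015937.17) was read on chr13:56221435-56222039 of the minus strand, 324 bases short of the annotated end. H3f3b overlapped the long noncoding gene Gm74516 on the same strand, and reads of such a pair cannot be told apart. H2az1 overlapped Gm40155 and Macroh2a1 overlapped Gm47071 on the opposite strand.

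Both gene pairs, for H3.3 and for H2A.Z, encode the same or nearly the same protein, and 3 of these 4 genes had exact copies of their 3′ UTR elsewhere in the genome. Of the 468 windows of 50 bases in the H3f3a interval, 438 (93.6%) occurred more than once in GRCm39, and single windows occurred up to 18 times. In H2az1 373 of 426 windows (87.6%) had a copy, with up to 5 occurrences. H3f3b had copies for 418 of 1397 windows (29.9%), and these lay between bases 7 and 554 of the interval. None of the 251 windows in its last 300 bases had a copy, nor any of the 251 windows in the last 300 bases of a shorter interval that ends behind the middle hexamer. H2az2, H1f0, H2ax, H2aj and Macroh2a1 had none. The deposited count of multimapping reads was 0 in all libraries. Reads that fit H3f3a, H2az1 or H3f3b and a copy equally well are thus not visible in the tables. Levels of H3f3a and H2az1 are therefore uncertain, and the part of the copies in their values was not tested. For H3f3b the limit concerns reads in the copied part, which includes its first AATAAA at base 328.

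**Figure D1:**
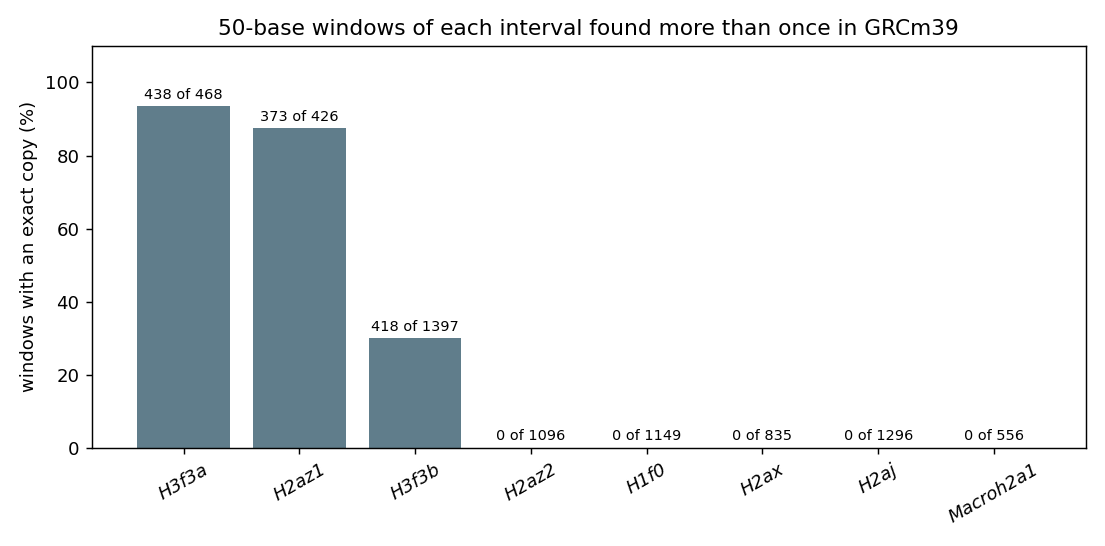
Share of the 50-base windows of each gene's interval that occur more than once in GRCm39, on either strand, in percent. Numbers above the bars are windows with a copy of all windows; H3f3a and H2az1 stand at 93.6% and 87.6%, H3f3b at 29.9%, and the other 5 genes at 0.

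The libraries held 506045 (labeled replicate 3) to 1842863 (unlabeled replicate 1) reads on the intervals used, 1 for each gene. The 10 fibroblast markers summed to between 31908 and 42840 CPM of these reads, and all 10 had reads in every library. Macrophage markers summed to 35.8 to 73.6 CPM, endothelial markers to 74.2 to 149 CPM, cardiomyocyte markers to 0.634 to 7.03 CPM and epicardial markers to 0.543 to 5.93 CPM. Mural cell markers, a list that includes Acta2, which is shared with activated fibroblasts, summed to 358 to 1632 CPM. Acta2 alone gave 353 to 1618 CPM of this. Labels give no origin for the replicates, while the methods name 3 CF preparations, and the tests below measure the spread between these libraries.

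H3f3b was by far the most abundant of the 8 transcripts. It encodes histone H3.3, which is placed into chromatin outside replication. The gene had 595, 410 and 187 reads in labeled replicates 1 to 3 and 813 and 388 reads in the unlabeled replicates. Relative to the counted reads this was 378, 343 and 370 CPM in the labeled libraries and 441 and 390 CPM in the unlabeled ones. The labeled libraries all lay below both unlabeled libraries by a small margin. The CPM deposited by the authors, which divides by a larger number of reads per library, was 49.8, 29.1 and 12.8 in the labeled libraries and 56.1 and 35.4 in the unlabeled ones. This scale spread the labeled libraries far more than the counted reads did, and the text below uses CPM of counted reads.

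A second, shorter interval of H3f3b ended 330 bases upstream, just behind the middle of its 3 AATAAA hexamers, of which the first begins at base 328. It held 2362 of the 2393 reads of the longer interval. Only 8, 5 and 4 reads of the labeled libraries and 10 and 4 reads of the unlabeled libraries were counted on the longer interval alone, 1.30% in all. The counted 3′ end reads of H3f3b thus lay almost entirely upstream of the distal 330 bases in both groups.

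H3f3a, which encodes the same H3.3 protein, had the lowest mean in the labeled libraries, although H2aj was lower in labeled replicate 1 and unlabeled replicate 1. It had 53, 33 and 15 reads in the labeled libraries and 84 and 27 in the unlabeled ones, or 33.6, 27.6 and 29.6 CPM against 45.6 and 27.1 CPM. The groups overlapped. Its mean of 30.3 ± 3.06 CPM (SD, n = 3) stood beside 363 ± 18.0 CPM for H3f3b, with the limits of the copies and of the short interval given above.

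The H2A.Z genes encode a variant found at promoters and enhancers, where it is exchanged by SRCAP and p400 complexes. H2az2 had 131, 94 and 49 reads in the labeled libraries and 202 and 101 in the unlabeled ones, or 83.1, 78.7 and 96.8 CPM against 110 and 101 CPM. Labeled libraries were again all lower than unlabeled ones. A shorter H2az2 interval, ending 132 bases upstream, held 536 of 577 reads, and 23 of the other 41 reads came from labeled replicate 1. Another one, 3 bases shorter, held the same reads in every library. H2az1 had 56, 70 and 28 reads against 106 and 64, or 35.5, 58.6 and 55.3 CPM against 57.5 and 64.3 CPM, and the groups overlapped.

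Of the H2A variants, H2ax encodes H2A.X, which is phosphorylated around DNA breaks, and H2aj encodes H2A.J, which is known to accumulate in senescent fibroblasts. H2ax had 77, 48 and 23 reads in the labeled libraries and 132 and 57 in the unlabeled ones. This was 48.9, 40.2 and 45.5 CPM against 71.6 and 57.2 CPM, with no overlap of the groups. H2aj had 40, 83 and 41 reads against 52 and 41, or 25.4, 69.5 and 81.0 CPM against 28.2 and 41.2 CPM. Labeled replicate 1 was the lowest of all 5 libraries and labeled replicates 2 and 3 were the highest. Acta2, a mural cell marker shared with activated fibroblasts, was ordered alike, except that labeled replicate 1 was above unlabeled replicate 1. It had 539, 1411 and 1618 CPM in the labeled libraries and 353 and 740 CPM in the unlabeled ones. Rgs5, Cspg4 and Myh11 of that list had at most 7.90 CPM in any library and were not ordered this way. What the order of Acta2 means for the H2aj values was not tested.

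Macroh2a1 encodes macroH2A1, an H2A with a large globular macro domain that is enriched in silent chromatin. It had 279, 247 and 122 reads in the labeled libraries and 296 and 169 in the unlabeled ones, or 177, 207 and 241 CPM against 161 and 170 CPM. Here the labeled libraries were all higher. A second interval further upstream, chr13:56238492-56243442, held 5, 2 and 0 labeled and 2 and 1 unlabeled reads. H1f0 encodes the linker histone H1.0 of slowly dividing and differentiated cells. Its 365, 233 and 72 labeled and 215 and 159 unlabeled reads gave 232, 195 and 142 CPM against 117 and 160 CPM, and the groups overlapped through labeled replicate 3.

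By mean level in the labeled libraries the order was H3f3b, Macroh2a1 at 208 ± 32.1 CPM, H1f0 at 190 ± 44.9, H2az2 at 86.2 ± 9.47, H2aj at 58.6 ± 29.4, H2az1 at 49.8 ± 12.5, H2ax at 44.8 ± 4.38 and H3f3a (SD, n = 3). The 3 libraries of H3f3b did not overlap with those of Macroh2a1, those of H1f0 did not overlap with those of H2az2, and those of H2ax did not overlap with those of H3f3a. All other neighbours in this order overlapped. The places of H3f3a and H2az1 in the order carry the limits given above. H3f3b stood at rank 459 of all genes, Macroh2a1 at rank 928 and H1f0 at rank 1019.

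**Figure D2:**
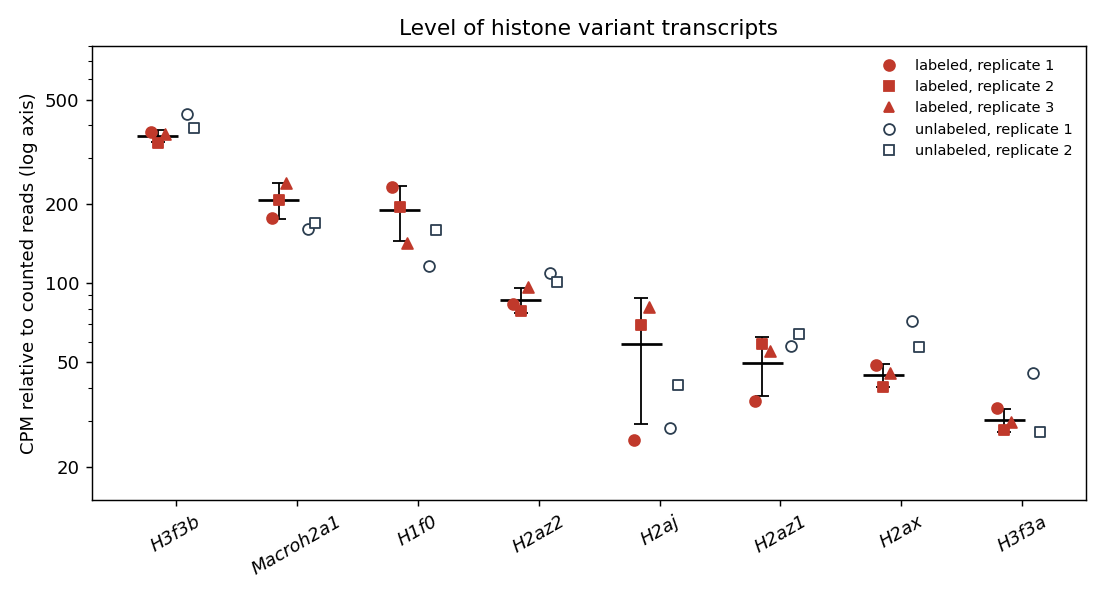
Level of each transcript in CPM relative to the counted reads, on a log axis, with 3 labeled (filled) and 2 unlabeled (open) libraries. Black lines and bars are the mean ± SD of the labeled libraries; H3f3b lies at 343 CPM or more in every library and H3f3a at 45.6 CPM or less.

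T>C rates were higher with S4U in all 8 transcripts, with the thinnest support for H2aj. The beta-binomial test of labeled against unlabeled conversions, at p below 0.05, was passed by 8 of 8 genes with a higher rate in the labeled libraries, beside 94.6% of all 19240 intervals and 95.1% of 11179 genes with 1 interval each. No interval had a lower rate by this test, and limma on the log odds called 1 interval as lower. All 3 labeled libraries were above both unlabeled libraries for the 8 genes, as for 99.4% of the 8284 genes in which each library covered 100 or more T positions. The rise is thus shared with nearly all transcripts, and the size of the rate is what differs between genes. Over these 8284 genes the median rate was 0.0384, with quartiles of 0.0336 and 0.0425.

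H2az1 had rates of 0.0470, 0.0411 and 0.0538 in the labeled libraries, the highest of the 8 in the mean, but above Macroh2a1 in only 1 of 3 libraries, labeled replicate 3. In the unlabeled libraries it was 0 of 2437 covered T positions, which allows a rate of up to 0.00123, and 0.00134. Its mean of 0.0473 ± 0.00637 (SD, n = 3) was above that of 91.8% of genes. The second H2A.Z gene stood at the other side of the median. H2az2 had rates of 0.0330, 0.0286 and 0.0352 against 0.000237 and 0.000405, and its mean of 0.0323 ± 0.00334 was above that of only 20.5% of genes.

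The pair was compared directly over the 3 labeled libraries. The rate of H2az2 minus that of H2az1 was -0.0150 on average, negative in 3 of 3 libraries, and the SD of this difference over the libraries was 0.00320. The values of the genes did not overlap, and the exact permutation test gave p = 0.1, two-sided, which is the smallest p that 3 against 3 allows (adjusted p = 0.2 over the 2 pairs compared, exact). Both genes were read in the same 3 libraries, and an exact permutation within libraries, added after the data were seen, gave p = 0.25 for this pair and for H3f3b and H3f3a, the smallest value that 3 libraries allow. By the share of reads with a conversion, H2az1 had 63.6% ± 6.89 and H2az2 45.9% ± 0.961 (SD, n = 3), at 22.7 and 22.5 covered T positions per read. The copies of the H2az1 3′ UTR bear on the genes that its reads could come from, and their part in this difference was not tested.

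The H3.3 pair overlapped. H3f3b had rates of 0.0368, 0.0356 and 0.0378, with a mean of 0.0367 ± 0.00112, against 0.000800 and 0.000468 without S4U. H3f3a had rates of 0.0286, 0.0356 and 0.0373, with a mean of 0.0338 ± 0.00462, and no conversion in 2199 and 779 covered T positions without S4U, which allows rates of up to 0.00136 and 0.00385. H3f3b was higher by 0.00294 with an SD over libraries of 0.00461, and it was higher in 3 of 3 libraries, but the difference was within the spread of the libraries (exact permutation test, two-sided p = 0.4, adjusted p = 0.4). Without labeled replicate 1 the difference was 0.000282. In labeled replicate 3, H3f3a rested on 16 conversions in 429 covered T positions, with a 95% Wilson interval from 0.0231 to 0.0597. H3f3b had 195 in 5155 and an interval from 0.0330 to 0.0434. These intervals take T positions as independent, although the 429 positions lay on 15 reads, and can be too narrow.

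Macroh2a1 had rates of 0.0471, 0.0415 and 0.0460, the highest of the 8 in labeled replicates 1 and 2, with a mean of 0.0449 ± 0.00294 that was above that of 84.9% of genes. It also had the highest background of the well covered members, 0.00233 and 0.00205 without S4U, compared with a median of 0.000481 over all genes. H2ax had rates of 0.0343, 0.0326 and 0.0436 (mean 0.0368 ± 0.00596) against 0.00116 and 0.000684. H1f0 was even across libraries, with 0.0360, 0.0329 and 0.0341 (mean 0.0343 ± 0.00156) against 0 of 3663 covered T positions, which allows up to 0.000819, and 0.000597.

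**Figure D3:**
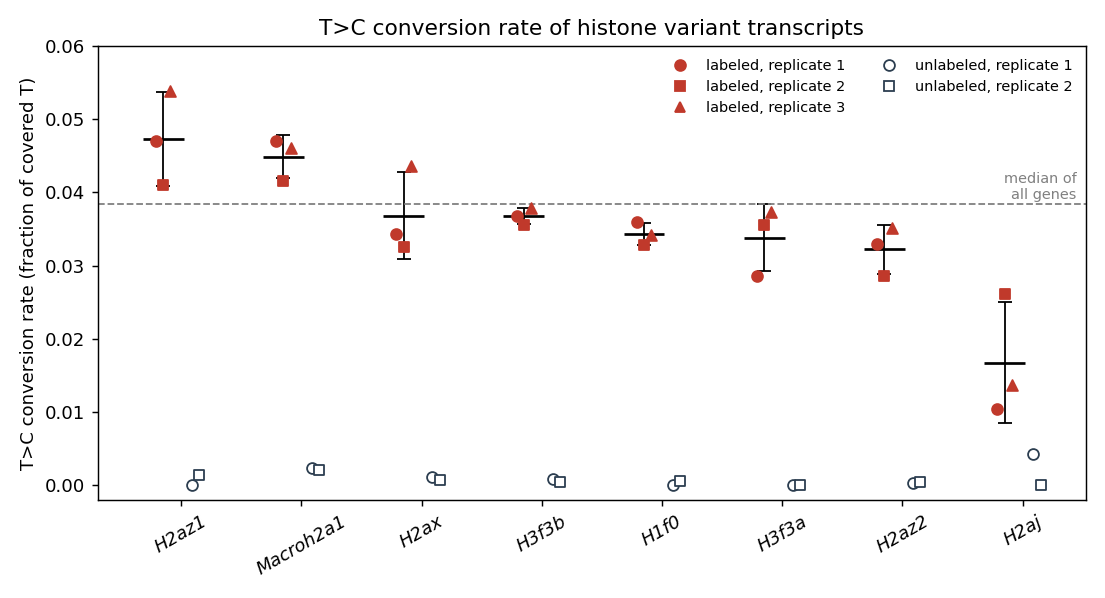
T>C conversion rate of each transcript as a fraction of covered T positions, in 3 labeled (filled) and 2 unlabeled (open) libraries; black lines and bars are the mean ± SD of the labeled libraries and the dashed line is the median of 8284 genes. H2az1 and Macroh2a1 have means above the median, the other 6 below it, and H2aj is the lowest in each labeled library.

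H2aj had the lowest rate and the thinnest support. Its rates were 0.0104, 0.0261 and 0.0137 in the labeled libraries, with a mean of 0.0167 ± 0.00829 that was above that of 2.98% of genes, and 0.00426 and 0 of 300 covered T positions, which allows up to 0.0100, in the unlabeled ones. These rest on 2 of 192, 15 of 574 and 3 of 219 covered T positions. The 95% Wilson intervals ran from 0.00286 to 0.0372, from 0.0159 to 0.0427 and from 0.00467 to 0.0395, and all 3 reach past the lower quartile of all genes. The beta-binomial p was 0.012, and it was 0.0817 without unlabeled replicate 2. A read of H2aj covered 5.69 T positions on average in the labeled libraries, where the median over genes was 20.7 and 0.0966% of genes had fewer. The proximal AATAAA printed above begins at base 45 of the H2aj interval, and the first 70 bases hold 7 T positions. Only 10.1% ± 5.34 of H2aj reads carried a conversion (SD, n = 3), compared with 59.1% ± 3.69 for H3f3b and a median of 51.6% over genes. This share falls with the number of T positions per read and cannot be set against that of the other members.

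In the order H2az1, Macroh2a1, H2ax, H3f3b, H1f0, H3f3a, H2az2 and H2aj, 3 steps between neighbours were larger than the SD of either gene. These were Macroh2a1 over H2ax by 0.00803, H3f3b over H1f0 by 0.00243 and H2az2 over H2aj by 0.0155, and each had this direction in 3 of 3 libraries. Only H2az2 and H2aj did not overlap between libraries. The median over the 8 genes was 0.0355.

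**Figure D4:**
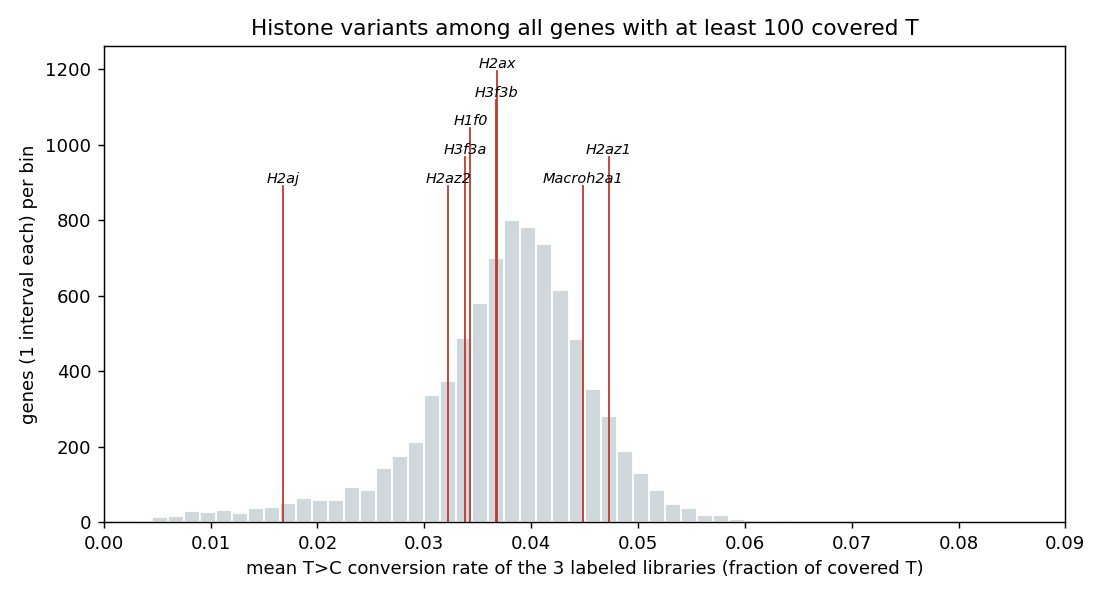
Distribution of the mean T>C rate of the 3 labeled libraries over 8284 genes (grey bars, 1 interval per gene, 100 or more covered T positions per library), with red lines at the 8 histone variant genes. Red lines run from H2aj at 0.0167 to H2az1 at 0.0473, around the median of 0.0384.

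For Macroh2a1 and H2az2, the highest and lowest of the members that reached 1000 covered T positions per library throughout, the genes with the most similar rates were sought among 2104 others of the same coverage, by Euclidean distance over the 3 labeled libraries. The nearest to Macroh2a1 were Sptbn1 (distance 0.00176), Dhx9 (0.00192) and Cers6 (0.00220), with mean rates of 0.0441, 0.0438 and 0.0461. The nearest to H2az2 were Cpd (0.00207), Ptpn1 (0.00250) and Cbx6 (0.00269), with mean rates of 0.0325, 0.0309 and 0.0315.

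Levels were then compared between cells with and without S4U. In the fit without a replicate block, none of the 8 genes was called by edgeR (quasi-likelihood test, Benjamini-Hochberg adjusted p below 0.05), beside 0% of 9807 genes tested. At an unadjusted p below 0.05 edgeR called none of the 8 genes either, beside 5.97% of all genes. At an adjusted p below 0.05 DESeq2 called 13 genes as higher and 7 as lower, none of them among the 8. In 3 of the 8 genes (H3f3b, H2az2 and H2ax) every labeled library was below both unlabeled ones, beside 13.1% of all genes. In 1 gene, Macroh2a1, every labeled library was above both, beside 8.2% of all genes.

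The fitted log2 fold change of labeled against unlabeled libraries was 0.82 for H2aj with an SE of 0.55 (edgeR adjusted p = 0.988), and it ran from 0.51 to 1.21 when each library was left out in turn. H1f0 had 0.53 with an SE of 0.30 (edgeR adjusted p = 0.957). With the replicate number as a block, edgeR called H1f0 as higher, with 0.71 (adjusted p = 0.000364). That fit called 528 of all genes as higher and 617 as lower, and whether the numbers pair the libraries is not known. Macroh2a1 had 0.41 with an SE of 0.26 in the fit without a block. On the other side H2ax had -0.45 with an SE of 0.28 (adjusted p = 0.973). H2az1 and H2az2 had -0.22 each, H3f3a -0.19 and H3f3b -0.11. Not all directions held when 1 library was left out. Without unlabeled replicate 1, H3f3a turned to 0.19 and H1f0 fell to 0.28. Without labeled replicate 1, H2az1 stood at 3.54e-05. With all libraries, the median of the 8 genes was -0.15 beside 0.02 over all genes tested. Proliferation markers were below 0 in 8 of 8 genes with a median of -0.74, beside 4732 of all 9807 genes below 0. They summed to 158 to 242 CPM in the labeled and 321 to 441 CPM in the unlabeled libraries. At an unadjusted p below 0.05 edgeR called 1 of these markers as lower, beside 306 of all 9807 genes. None of the 8 markers passed the adjusted test. Their part in the negative fitted values of H2ax, H2az1 and H2az2, which did not pass it either, was not tested. In such bulk libraries fewer cells with a transcript and less of it per cell cannot be told apart.

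Replication-dependent histone genes served as the contrast to the polyadenylated variants, since their stem-loop mRNAs lack the poly(A) tail used for priming. Of 63 such genes, 48 had no read in any library, beside 6082 of all 20365 genes. Of their intervals, 58 of 63 were under 100 bases long, and the part of the interval length in these counts was not tested. The 8 variant genes had 6257 reads in all libraries together and the 63 replication-dependent genes 2672, of which 2614 came from H2bc4, an H2B gene. Its reads were 704, 353 and 100 in the labeled libraries and 1124 and 333 in the unlabeled ones, and their total was above the 2393 of H3f3b, but not in every library. The H2bc4 interval is 305 bases long, where the median of the 63 genes is 52. H2bc4 had a T>C rate of 0.0361 ± 0.00175 (SD, n = 3), which differed from that of H3f3b by less than the SD of either. The next gene, H2bc21, had 28 reads, and the other 61 genes had 30.

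**Figure D5:**
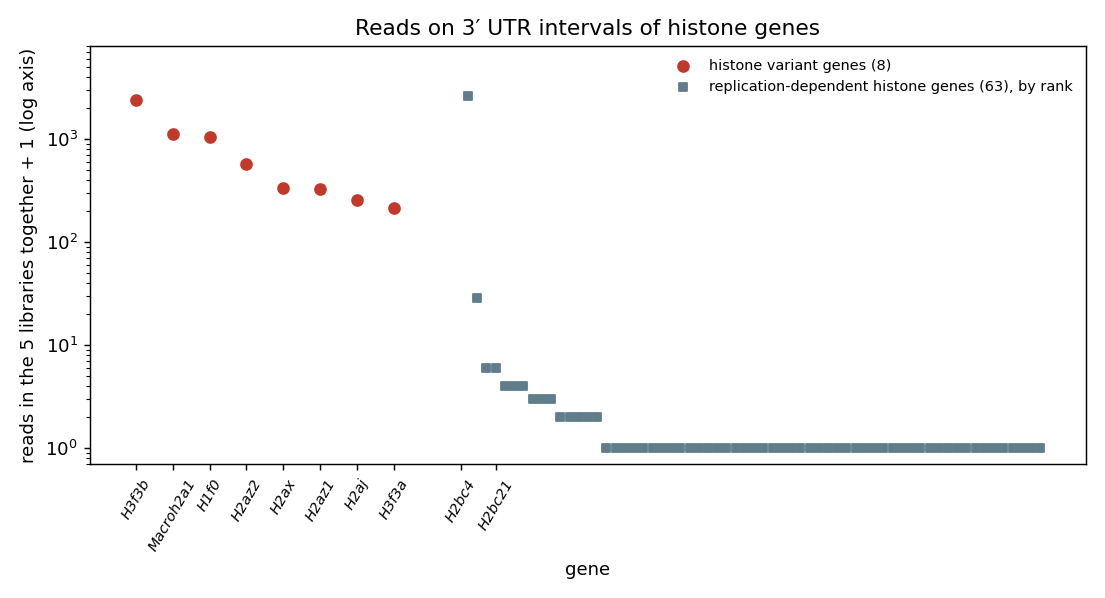
Reads in the 5 libraries together, plus 1, on a log axis, for the 8 histone variant genes (circles) and the 63 replication-dependent histone genes (squares, by rank). The 8 variant genes lie above 200 reads; of the replication-dependent genes only H2bc4 does, and 48 had no read.

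The genes that handle these variants were read from the same tables. All 8 genes of H3.3 deposition (the HIRA and DAXX-ATRX pathways) passed the T>C test, as did 95.1% of all genes, so such counts do not set these lists apart, and the 7 with at least 100 covered T positions had a median rate of 0.0399, from 0.0280 to 0.0518. Ubn2, a HIRA complex subunit and the only one of the list with 1000 covered T positions, had 0.0388 ± 0.00122 (SD, n = 3). All 12 genes of H2A.Z exchange passed, with a median of 0.0389 over 7 genes, and Anp32e, a chaperone that removes H2A.Z, had 0.0440 ± 0.00891. Of 12 general histone chaperones 11 were tested and passed, with a median of 0.0416 over 10 genes. Nap1l1 was lowest of the well covered ones with 0.0413 ± 0.00237, and Ssrp1, a subunit of the FACT complex, was highest with 0.0438 ± 0.00409. The 8 genes of H2AX signaling passed as well, with a median of 0.0353 over 5 genes, and Baz1b, a kinase that acts on H2A.X, had 0.0399 ± 0.00544. Of the 6 genes of histone mRNA 3′ end processing, 4 of 5 tested passed. These medians stand beside 0.0384 over all genes and were not tested against it.

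Other variants had few reads, at most 43 in any library. The 3 genes Macroh2a2, Cenpa and H1f10 passed the T>C test, as nearly all genes did. Cenpa, named after its value was seen, encodes the centromeric H3 variant and had 43, 26 and 11 labeled reads and rates of 0.0543, 0.0746 and 0.0480, with a mean above that of 99.6% of genes. A high rate was not particular to Cenpa. The 8 proliferation markers had a median rate of 0.0535, from 0.0242 to 0.0634. Among abundant CF transcripts, Dcn, which encodes decorin, had the lowest rate of the fibroblast markers with 0.0112 ± 0.000136, below that of H2aj in mean, and Pdgfra had the highest with 0.0414 ± 0.00130. Acta2, of the mural cell list, had 0.0354 ± 0.000946.

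In reads, no gene of these handling lists passed the adjusted edgeR test. The 11 tested genes of H2A.Z exchange all had a fitted value above 0, beside 5075 of all 9807 genes, with a median log2 fold change of 0.31. General chaperones had 10 of 12 below 0 with a median of -0.27, H3.3 deposition 5 of 8 with a median of -0.28 and H2AX signaling 5 of 7 with a median of -0.37. At an unadjusted p below 0.05, Atrx of H3.3 deposition (1 of 8 tested) and Atm of H2AX signaling (1 of 7) had lower reads in the labeled libraries. Their log2 fold changes were -1.06 and -0.91, with edgeR adjusted p of 0.543 and 0.705. At the same unadjusted threshold 306 of all 9807 genes were lower and 279 higher, so such single genes do not set these lists apart. Atrx and Atm were named after their values were seen.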

How the data were processed

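The authors extracted UMIs with UMI-tools, mapped the QuantSeq 3′ end reads to mm39 with SLAM-DUNK 0.4.3 and removed duplicates. The deposited tables hold raw counts of reads, conversions and covered T positions per 3′ UTR interval, a conversion rate (a fraction deposited by the authors) and the authors' CPM, whose denominator exceeds the counted reads. Repeated rows were used once (40428 distinct intervals, whose T content equalled GRCm39 in 40380 of 40380 on its chromosomes). The annotation was GENCODE M39. Whether counting used strand is not given in the sources used here.

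A beta-binomial likelihood-ratio test (two-sided, p below 0.05) compared T>C rates on intervals where each library covered a T. On simulated data it called more unchanged intervals than its nominal share, so single p-values near the threshold are weak. Reads were compared with edgeR 4.0.16 (quasi-likelihood, TMM, filterByExpr, Benjamini-Hochberg). Gene pairs were compared with exact permutation tests. Where no conversion was seen, the limit is 3 conversions of the covered T positions. Limits and intervals cover counting error only. They take T positions as independent, although several lie on the same read, and can be too narrow. Alternatives were other coverage thresholds, limma 3.58.1, DESeq2 1.42.0, RLE, no filter, summed intervals, the replicate block and each library left out. R 4.3.3, Python 3.11.15, scipy 1.17.1, pandas 2.3.3 and numpy 2.4.6 were used.

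The 8 genes and the lists were chosen with earlier results of these data known. Genes named beside them were, per list, the highest and lowest T>C rate among genes that reached 1000 covered T positions per library throughout, the 2 replication-dependent genes with the highest CPM, and the 3 genes nearest to the members with the highest and lowest rate. Others are said to be named after their values were seen. No protein sequence was used here.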

Additional observations from a re-analysis of the deposited data

How the results depend on the processing

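The number of intervals with a raised T>C rate was 18200 of 19240. It was 3154 of 3156 with at least 1000 covered T positions and 10634 of 11179 with 1 interval per gene, since fewer intervals were tested, and ran from 17056 to 18632 when each library was left out. At 1000 covered T positions only H2az2, H3f3b, Macroh2a1 and H1f0 could be tested. The members passed under each alternative in which they were tested, except H2aj without unlabeled replicate 2. H2az2 minus H2az1 ran from -0.0163 to -0.0132 without each labeled replicate in turn, and H3f3b minus H3f3a from 0.000282 to 0.00439. No gene was called in reads in the edgeR fits without a block, each library left out included, while DESeq2 called 13 as higher and 7 as lower; what makes them differ was not tested. With the replicate number as a block, edgeR called 528 genes as higher and 617 as lower, and H1f0 was among them (log2 fold change 0.71, adjusted p = 0.000364), while H2aj was not called, with a log2 fold change of 0.38. Deviations of same-numbered libraries correlated at 0.784 and 0.638 and those of labeled replicates 1 and 2 with the other unlabeled library at -0.784 and -0.638. With 2 unlabeled libraries each value fixes its opposite, and the labels do not say what the numbers share, so whether they pair the libraries is not known. The blocked fold changes rest on replicates 1 and 2 alone, since labeled replicate 3 has no unlabeled library of its number. With each library left out in turn, the H3f3a log2 fold change ran from -0.47 to 0.19 (without unlabeled replicate 1) and that of H2az1 from -0.36 to 3.54e-05 (without labeled replicate 1). That of H3f3b ran from -0.16 to -0.07. That of H1f0 was 0.28 without unlabeled replicate 1 and 0.82 without unlabeled replicate 2. On the deposited CPM scale the mean of all 8 members was lower than relative to counted reads, 30.6 for H3f3b and 2.60 for H3f3a. H3f3a is limited by few reads, by the exact copies and by the short interval, and H2aj by few T positions per read.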
